A study of Mus musculus with 8 samples.

Results

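Fos, Fosb, Jun, Junb, Jund, Egr1, Ier2, Atf3, Dusp1 and Zfp36 are 10 immediate early genes that were followed by name through the single neurons of the mouse stellate ganglion, the sympathetic ganglion that supplies the heart and the forelimb. They were 10 of the 19224 genes in the deposited table, and all 10 were present in it. They were chosen by name with their measured levels across these subtypes and mice known, so the same levels by subtype and by mouse are given as descriptions without a test. The study sequenced single cells from 8 mice of 1 condition by droplet 3′ RNA sequencing. The animals were male C57BL6/J mice of 8 to 10 weeks, in which a virus carrying GFP had been injected into the heart and a virus carrying tdTomato into the front paws, and both stellate ganglia were taken and digested with enzymes at 37 °C. No mouse without virus and no ganglion without digestion was sequenced, so the state of these genes in the animal and their state after dissociation cannot be told apart. Of the 8 mouse names attached to the neurons, 5 matched a single sample (mice 1 to 5), and these hold 1002 of the 1303 neurons. The authors had sorted the neurons into 8 subtypes: the noradrenergic NA1a, NA1b, NA1c, NA2 and NA3, and those named Ach1, Ach2 and Glut. The clustering used the same cells, so a difference between subtypes carries no test either.

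Immediate early genes are switched on within minutes of a stimulus without the need for new protein. In neurons, calcium entry and growth factor receptors act through MAP kinases on the factors SRF and CREB, which already sit on the promoters. The first products are mostly transcription factors, and they are followed by proteins that shut the response down again. Fos, Fosb, Jun, Junb and Jund encode partners of the AP-1 dimers, Egr1 a zinc finger factor, Ier2 a small nuclear protein, and Atf3 a leucine zipper factor known for its rise in injured peripheral neurons. Dusp1 encodes a phosphatase that inactivates MAP kinases, and Zfp36 encodes tristetraprolin, which binds AU-rich messenger RNAs and speeds their decay. The same genes are also known to rise in many tissues during enzymatic dissociation.

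The promoters of these genes were searched for short motifs. The 250 bases before the start of transcription were read from RefSeq (GRCm38.p6) for the 8 genes that matched, which leaves out Egr1 and Ier2. Both strands were searched for the cyclic AMP response element bound by CREB (CRE, TGACGTCA), for its shorter core TGACG, which lies in every CRE on each strand, for the AP-1 site TGANTCA, and for the CArG box bound by SRF. The sequences of Fos, Dusp1 and Zfp36 are shown, 5′ to 3′ on the strand of the gene, because they hold 2 CRE cores, a full CRE and a CArG box in turn. Capitals mark these letters. They lie at chr12:85473640-85473889 (plus strand), chr17:26508473-26508722 (minus strand) and chr7:28379229-28379478 (minus strand).
Fos: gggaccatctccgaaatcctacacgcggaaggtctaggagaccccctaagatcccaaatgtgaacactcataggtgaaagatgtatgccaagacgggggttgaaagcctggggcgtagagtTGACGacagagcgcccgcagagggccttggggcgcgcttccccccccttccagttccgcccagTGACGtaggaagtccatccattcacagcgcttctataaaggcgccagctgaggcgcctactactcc
Dusp1: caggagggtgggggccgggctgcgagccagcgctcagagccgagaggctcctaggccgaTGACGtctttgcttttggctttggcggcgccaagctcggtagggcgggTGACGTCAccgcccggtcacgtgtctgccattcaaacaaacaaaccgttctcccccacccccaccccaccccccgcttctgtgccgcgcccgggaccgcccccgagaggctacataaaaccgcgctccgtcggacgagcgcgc
Zfp36: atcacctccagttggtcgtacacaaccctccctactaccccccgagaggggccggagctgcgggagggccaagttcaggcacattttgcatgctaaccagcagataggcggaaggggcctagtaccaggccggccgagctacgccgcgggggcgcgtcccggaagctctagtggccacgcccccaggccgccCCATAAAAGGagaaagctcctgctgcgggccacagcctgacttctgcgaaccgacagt
A full CRE was found in Dusp1 alone among the 8, at 143 to 136 bases before the start, and in 1.55% of all 32851 promoters in the table. A core was found in 5 of the 8 (Fos, Fosb, Junb, Atf3 and Dusp1) and in 17.8% of all promoters. Within these windows the CArG box was found only in Zfp36, at 58 to 49 bases before the start, and in 1.47% of all promoters. Sites further from the start were not searched, so a motif missing here may still lie outside the window. No AP-1 site was found in these windows of the 8 genes, and 6.75% of all promoters held one.

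Neurons were deep enough to show these genes one by one, but unevenly so. The 5 mice gave 165 to 235 neurons each and 916296 to 1196621 UMIs (unique molecular identifiers, 1 for each captured RNA molecule). The median neuron held 8181.5 UMIs in NA1a, 6643.5 in NA3, 3338 in NA1b, 2341.5 in NA2 and 2162 in Ach1. Snap25, Dbh and Th, which mark neurons and noradrenaline synthesis, were each found in 78.3% or more of the neurons of NA1a, NA1b, NA1c, NA2, NA3 and Ach1. Th was found in 39.1% of Ach2 neurons. Of the cell barcodes of all 1303 neurons, 21 occurred under 2 or more of the 8 mouse names. The number that chance would give was not computed. NA3 and Ach1 stand apart: they carried the genes of other cells, and 55 of the 62 Ach1 neurons came from mouse 4. Levels are given as mean UMIs per 10000 UMIs of a neuron, for each mouse with at least 10 neurons of the subtype.

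Across all neurons of a mouse, the 10 genes together made up 13.7, 13.8, 11.5, 21.6 and 21.0 UMIs per 10000 in mice 1 to 5. Fos was at 1.79, 2.48, 1.01, 3.44 and 4.45, Egr1 at 1.26, 1.36, 0.457, 2.54 and 1.99, and Atf3 at 0.716, 0.952, 0.328, 1.19 and 1.83. Mice 4 and 5 were thus the highest and mouse 3 the lowest for all 3 genes. The mouse with the most exceeded the mouse with the least 4.42-fold for Fos, 5.57-fold for Egr1, 5.59-fold for Atf3 and 8.96-fold for Zfp36. The spread was narrower for Jun (2.01-fold), Jund (1.91-fold), Dusp1 (1.89-fold) and Ier2 (1.76-fold).

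A small share of the neurons held a larger share of this RNA. NA3 and Ach1 made up 7.06, 10.6, 4.85, 29.4 and 20.3% of the neurons of mice 1 to 5. They held 27.8, 46.9, 19.0, 62.2 and 63.4% of the summed level of the 10 genes, and 40.7, 67.9, 34.3, 78.3 and 80.0% of Fos. In each of the 5 mice their share of Fos was thus more than their share of neurons. When NA1a, NA1b, NA1c and NA2 were given equal weight and all other neurons were left out, the summed level was 10.9, 8.10, 9.46, 10.9 and 9.18, a 1.35-fold range against 1.88-fold over all neurons. Fos then ran from 0.671 to 1.21 UMIs per 10000, a 1.80-fold range. Mice 4 and 5, which had the largest shares of NA3 and Ach1 neurons, were no longer both above the other 3 mice.

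**Figure D1:**
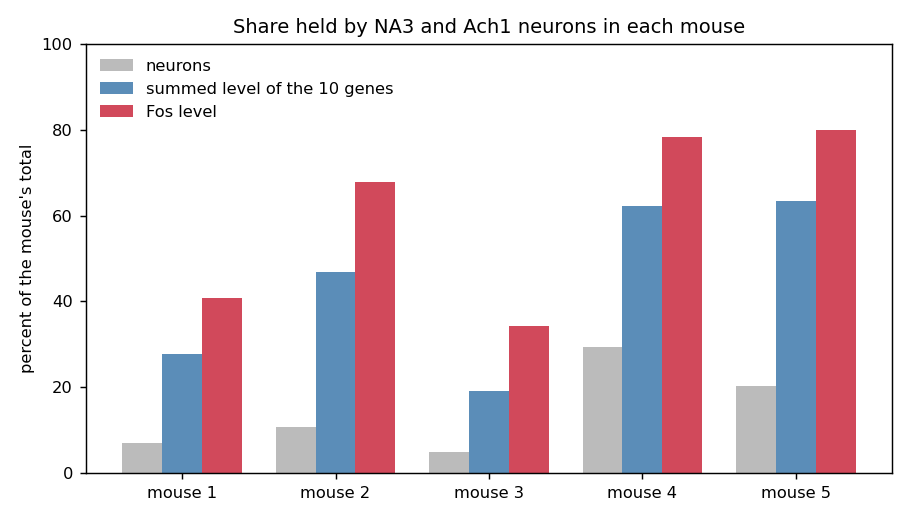
Percent of each mouse's neurons, of its summed level of the 10 genes and of its Fos level that lay in NA3 and Ach1 neurons (y axis, percent; bars for mice 1 to 5, 1 value per mouse and measure). The grey bars reach at most 29.4%, and the red bars for Fos run from 34.3 to 80.0%.

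By subtype, NA3 was the highest of the noradrenergic subtypes for 9 of the 10 genes, and NA1a was the highest for Dusp1. NA1a had a summed level of 9.81 ± 2.03, NA1b of 9.30 ± 1.49, NA1c of 9.47 ± 0.947 and NA2 of 10.2 ± 0.970 (SD, n = 5 mice), so these 4 subtypes did not differ beyond the spread between mice. It was 61.7, 77.9 and 66.5 in NA3 of mice 2, 4 and 5, and 37.5 in Ach1 of mouse 4. In Ach2 it was 9.48 and 17.0 in mice 1 and 4. Glut, with 17 neurons and no mouse with 10, had a pooled level of 10.97.

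**Figure D2:**
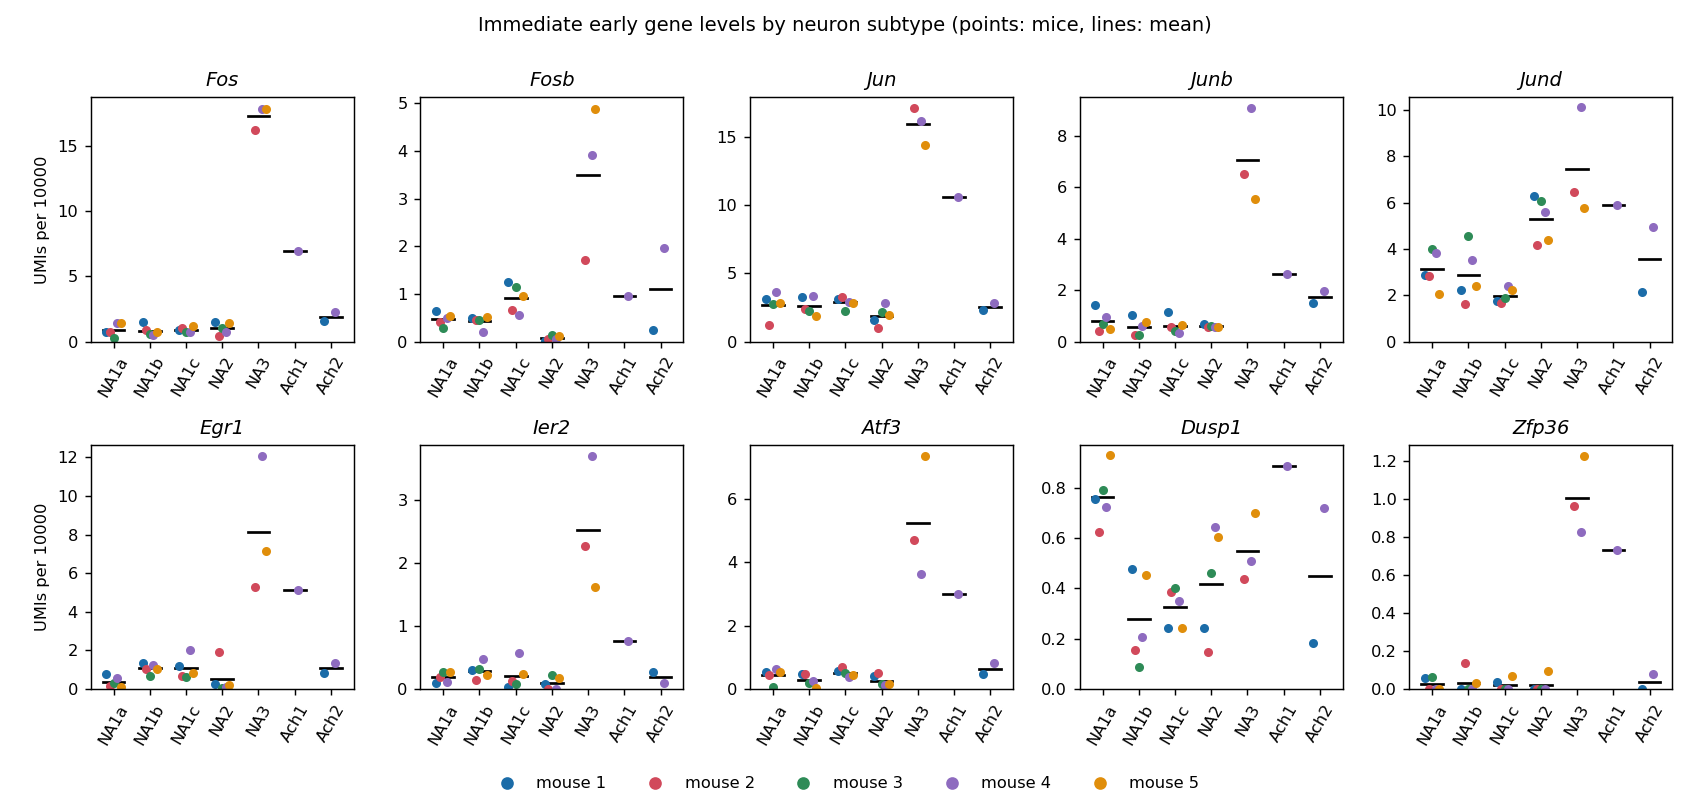
Level of each of the 10 genes (y axes, UMIs per 10000, each panel on its own scale) in 7 subtypes (x axes), with 1 point per mouse that had at least 10 neurons and a line at the mean over mice. The points of NA3 lie above those of NA1a, NA1b, NA1c and NA2 for 8 of the genes, while those of Jund overlap with NA2 and Dusp1 is highest among these 5 in NA1a.

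Fos, which forms AP-1 with a Jun protein, was at 16.3, 17.9 and 17.9 UMIs per 10000 in NA3 of mice 2, 4 and 5. In NA1a, NA1b and NA1c of the same mice, averaged, it was at 0.867, 0.894 and 1.13. The groups lay far apart, with a difference of 4.04 on the log2(UMIs per 10000 + 0.1) scale (SE 0.0910, n = 3 mice), the 23rd highest of the 9708 genes with a mean of at least 0.1 UMIs per 10000. Over all 5 mice NA1a ran from 0.310 to 1.43, NA1b from 0.518 to 1.49, NA1c from 0.732 to 1.22 and NA2 from 0.428 to 1.51. These 4 ranges overlapped. Ach1 of mouse 4 held 6.95, and Ach2 of mice 1 and 4 held 1.55 and 2.25.

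Fosb, the second Fos protein of the set, was at 1.71, 3.92 and 4.89 in NA3 against 0.509, 0.423 and 0.667 in the NA1 subtypes, a log2 difference of 2.40 (SE 0.42). It was also low in NA2. In NA2 of mice 1 to 5 it was at 0.0212, 0.0490, 0.138, 0.0562 and 0.121, and in NA1c at 1.25, 0.661, 1.14, 0.566 and 0.956. The NA1c values were all above the NA2 values, with a log2 difference of 2.51 (SE 0.25, n = 5 mice). NA1c also exceeded NA1b in each of the 5 mice by 0.94 (SE 0.14) and NA1a by 0.81 (SE 0.26).

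Jun, which pairs with the Fos proteins or with itself, was at 17.1, 16.2 and 14.4 in NA3 and at 2.29, 3.29 and 2.53 in the NA1 subtypes of the same mice. Its log2 difference was 2.53 (SE 0.17). Junb, a Jun protein with weaker activity at single AP-1 sites, was at 6.52, 9.06 and 5.56 against 0.415, 0.630 and 0.627, a log2 difference of 3.43 (SE 0.24). Both genes were high in NA3 of all 3 mice.

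Jund, the Jun protein that many resting cells make, was spread more evenly. In NA3 it was at 6.47, 10.1 and 5.76 and in the NA1 subtypes at 2.05, 3.26 and 2.24, a log2 difference of 1.51 (SE 0.0945). NA2 held 6.28, 4.19, 6.07, 5.60 and 4.38 in mice 1 to 5, which overlapped with NA3 across mice. Within mice 2, 4 and 5 NA3 was above NA2 in 3 of 3, by 0.62 on the log2 scale (SE 0.13). NA1c, the lowest, held 1.73, 1.69, 1.88, 2.40 and 2.24. NA2 was above NA1c by 1.36 on the log2 scale (SE 0.16), above NA1b by 0.93 (SE 0.20) and above NA1a by 0.76 (SE 0.13), each in 5 of 5 mice.

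Egr1 was at 5.27, 12.1 and 7.14 in NA3 and at 0.616, 1.26 and 0.663 in the NA1 subtypes, a log2 difference of 3.10 (SE 0.10). Within the NA1 neurons it was lowest in NA1a, at 0.782, 0.150, 0.324, 0.549 and 0.101 in mice 1 to 5, and at 1.37, 1.03, 0.654, 1.23 and 1.06 in NA1b. NA1b was the higher in every mouse, by 1.46 on the log2 scale (SE 0.37). Ier2 was at 2.27, 3.69 and 1.62 in NA3 and at 0.155, 0.382 and 0.247 in the NA1 subtypes, a log2 difference of 2.83 (SE 0.27). Atf3 was at 4.71, 3.64 and 7.34 against 0.530, 0.420 and 0.343, a log2 difference of 3.28 (SE 0.39).

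The feedback genes went separate ways. Zfp36 was at 0.961, 0.827 and 1.22 in NA3, and at 0.0460, 0 and 0.0333 in the NA1 subtypes, with a log2 difference of 3.13 (SE 0.14) that depends on the pseudocount at such low levels. Dusp1 was at 0.437, 0.510 and 0.701 in NA3 and at 0.388, 0.427 and 0.543 in the NA1 subtypes, a log2 difference of 0.22 (SE 0.0520). In NA1a Dusp1 was at 0.756, 0.623, 0.792, 0.724 and 0.930 in mice 1 to 5. It was lower in NA3 than in NA1a in 3 of 3 mice, by a mean of -0.41 on the log2 scale (SE 0.0231). NA1a also exceeded NA1b by 1.32 (SE 0.29) and NA1c by 1.04 (SE 0.18), each in 5 of 5 mice.

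**Figure D3:**
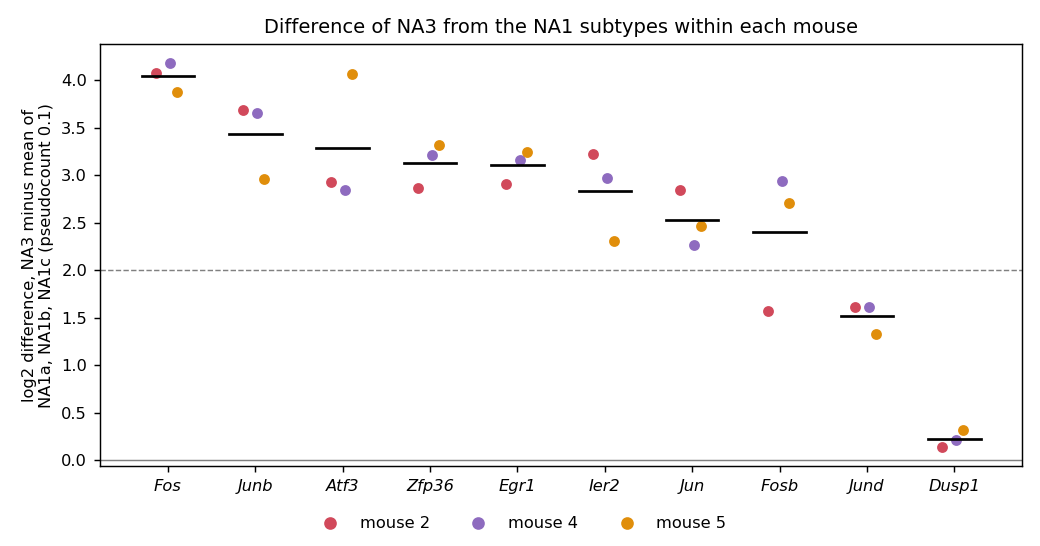
Difference of NA3 from the mean of NA1a, NA1b and NA1c (y axis, log2 of UMIs per 10000 + 0.1) for each gene (x axis, ordered by the mean), with a point for each of mice 2, 4 and 5 and a line at their mean. The solid grey line marks no difference and the dashed line 4-fold. Fos stands at 4.04 and Dusp1 at 0.22.

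Counted over the 10 genes, 10 were higher in NA3 than in the mean of the NA1 subtypes in every mouse, where 19.5% of all 9708 genes were. At least 4-fold higher in every mouse were 7 of the 10 (Fos, Jun, Junb, Egr1, Ier2, Atf3 and Zfp36), beside 1.83% of all genes. Against NA1a alone 9 were higher (19.2% of all genes), 1 was lower (Dusp1, 25.0%) and 7 at least 4-fold higher (1.94%). Against NA1b 10 were higher (20.1%) and 7 at least 4-fold (1.96%), and against NA1c 10 (20.8%) and 7 (1.73%). Against NA2 9 were higher (29.5%) and 7 at least 4-fold (3.09%), with Fosb in place of Egr1. The median log2 difference of the 10 genes was 3.09 from NA1a, 2.80 from NA1b, 2.75 from NA1c and 3.66 from NA2, and that of all genes was -0.15, -0.16, -0.16 and 0.23. The members were chosen with this pattern known, so these counts describe the choice.

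With a minimum of 5 neurons, NA3 had values in all 5 mice. The summed level was then 53.9, 61.7, 42.0, 77.9 and 66.5, each above every value of the NA1 subtypes and NA2. Fos was at 11.2 in mouse 1 (9 neurons) and at 6.95 in mouse 3 (7 neurons). Mouse 3 was thus the lowest within NA3 as well. The genes at least 4-fold higher than in NA1b numbered 4 in this case, than in NA1c 4, than in NA2 3 and than in NA1a 5. The share of all genes that met the rule in all 5 mice was not computed. These counts can therefore not be set beside those from 3 mice.

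Among NA1a, NA1b, NA1c and NA2, 9 of the 10 genes passed the filter in each of the 6 pairs and Zfp36 did not. Of the 54 combinations of a gene and a pair, 19 (35.2%) had 1 direction in all 5 mice, and so had 27.9% of the combinations over all genes. NA1a against NA1b had 1 gene higher (Dusp1, background 9.03%) and 1 lower (Egr1, 9.34%). NA1a against NA2 had 4 higher (Fosb, Jun, Ier2 and Dusp1, 24.9%) and 1 lower (Jund, 14.0%). NA1a against NA1c had 1 higher (Dusp1, 8.70%) and 2 lower (Fosb and Egr1, 8.40%). NA1b against NA1c had 0 higher (5.90%) and 2 lower (Fosb and Atf3, 5.85%). NA1b against NA2 had 2 higher (Fosb and Ier2, 26.4%) and 1 lower (Jund, 15.4%), and NA1c against NA2 had 3 higher (Fosb, Jun and Atf3, 25.4%) and 1 lower (Jund, 15.7%). In 5 of the 6 pairs the called genes thus went in both directions.

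NA3 neurons also carried the RNA of satellite glia, the cells that wrap each ganglion neuron. The summed level of 10 satellite glia genes was 256 ± 81.9 UMIs per 10000 in NA3 (n = 3 mice, range 188 to 347), against 7.25 ± 0.796 in NA1a and 13.7 ± 7.64 in NA1c (n = 5 mice). It was 119 in Ach1 of mouse 4. No gene of the list was at 0 in NA3, and all 10 were higher there than in the NA1 subtypes in every mouse. Apoe, a lipid carrier of glia, was at 159 ± 47.8 in NA3 and 5.45 ± 1.97 in the NA1 subtypes. Over 6 fibroblast genes the sum was 18.2 ± 11.3 in NA3 (range 11.7 to 31.3), 38.7 in Ach1 and 0.937 ± 0.227 in NA1a. Of the other marker lists, 3 of 3 Schwann cell genes that passed the filter were higher in NA3 than in the NA1 subtypes in every mouse, and so were 1 of 2 smooth muscle genes, 0 of 3 immune genes and 0 of 1 endothelial genes. The 6 neuronal and noradrenergic markers summed to 49.0 ± 5.11 in NA3 and to 104 ± 6.53 in NA1a. The median mitochondrial share was 6.70% in NA3, 8.16% in Ach1 and 1.67% in NA1a.

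The neurons of NA3 were therefore also split by their satellite glia RNA. In mouse 4, the 7 NA3 neurons with the lower glia level carried 31.4 UMIs per 10000 of the glia genes and 72.6 of the immediate early genes, and the other 7 carried 344 and 83.2. The lower groups of mice 2 and 5 still carried 233 and 107 of the glia genes, far above the NA1 subtypes. In mouse 2 the lower group had 64.7 of the immediate early genes and the upper group 61.5, and in mouse 5 they had 49.5 and 82.9. The upper group was thus higher in 2 of 3 mice. Fos was at 16.5, 13.4 and 11.5 in the lower group of mice 2, 4 and 5 and at 17.1, 22.4 and 23.7 in the upper group, higher in 3 of 3 mice. Jun was higher with more glia RNA in 3 of 3 mice too (12.9 ± 2.66 against 19.1 ± 1.48). None of the other members had 1 direction in all 3 mice. The share of all genes with 1 direction was not computed for this split, so these counts are descriptions. Junb (7.16 ± 3.65 and 7.09 ± 0.378), Jund, Atf3 and Fosb had mean levels in both groups that differed by less than the SD over mice.

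Of the 92 NA3 neurons, 11, from 4 mice, had a glia level at or under 32.8 UMIs per 10000, the limit that 95% of NA1 neurons do not exceed. Their immediate early genes summed to 61.3, and those of the other 81 to 64.3. Fos was at 12.6 and 16.5, and Egr1 at 9.23 and 6.74, respectively. NA1a, NA1b and NA1c neurons at or under the same limit had sums of 10.0, 8.75 and 9.32. By mouse, these 11 neurons had sums of 61.0 and 89.2 in mouse 1, 50.5 in mouse 3 and 20.9 to 118 in mouse 4. They were at 33.8 and 14.8 in mouse 5, where NA3 as a whole was at 66.5. The pooled values have no spread over mice. The fibroblast and Schwann cell RNA of these 11 neurons was not examined, and the part of glia RNA in their level was not tested. In Ach1 of mouse 4 the sums were 40.6 with less and 35.2 with more glia RNA.

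**Figure D4:**
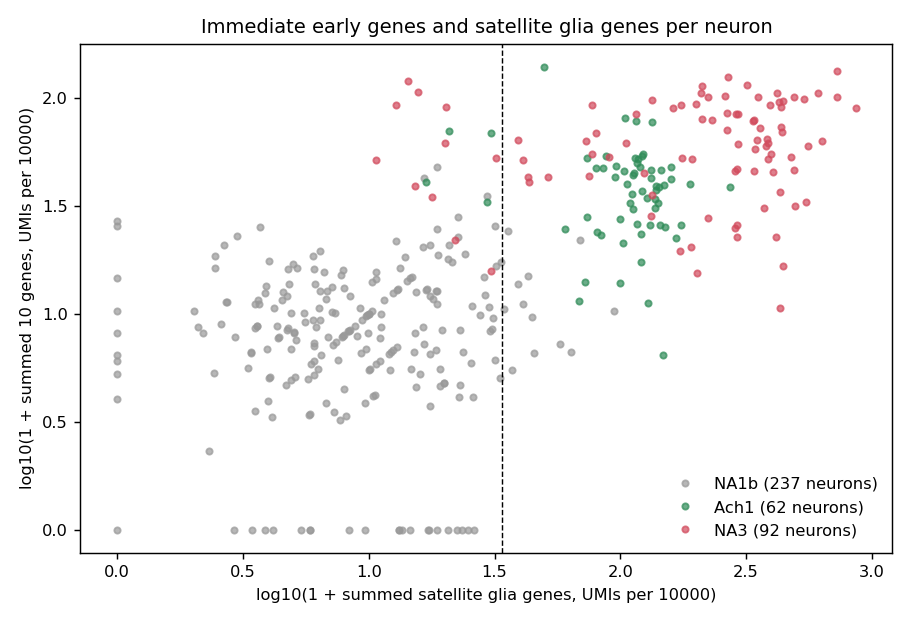
Summed level of the 10 immediate early genes (y axis) against that of 10 satellite glia genes (x axis), both as log10(1 + UMIs per 10000), with 1 point per neuron for 237 NA1b, 62 Ach1 and 92 NA3 neurons of the 5 mice. Left of the dashed line at 32.8 UMIs per 10000 of glia genes lie 11 NA3 neurons, whose mean on the y axis is 61.3 UMIs per 10000.

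In the NA1 neurons, with little glia RNA, the 10 genes were also slightly higher in the neurons with more of it in 2 subtypes. The sum was 8.50 ± 1.67 with less and 10.1 ± 1.27 with more glia RNA in NA1b, and 7.63 ± 0.941 and 11.3 ± 2.47 in NA1c, higher in 5 of 5 mice in each. In NA1a it was 10.1 ± 2.27 and 9.58 ± 2.16, higher in 2 of 5. Egr1 in NA1b went from 0.605 ± 0.184 to 1.56 ± 0.537, higher in 5 of 5 mice. The neurons with more glia RNA were also shallower: their mean depth per mouse was 2194 to 6001 UMIs in NA1b and 2307 to 4165 in NA1c, against 4390 to 9518 and 3888 to 6352 with less, lower in 5 of 5 and 4 of 5 mice. The parts of glia RNA and depth in these differences were not tested.

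Other early response genes were counted in the same way, beside 19.5% of all genes higher and 30.1% lower in NA3 than in the NA1 subtypes in every mouse. Of 24 other early response nuclear genes, 23 passed the filter, and 17 were higher and 1 lower. Their median log2 difference was 1.31. Klf6, a zinc finger factor, was at 2.90 ± 0.646 against 0.804 ± 0.191 (n = 3 mice), and Mcl1, a survival protein of the Bcl2 family, at 1.60 ± 0.394 against 0.391 ± 0.106. Of 8 EGR and NR4A genes, 6 passed and 4 were higher, among them Nr4a1, an orphan nuclear receptor, at 3.09 ± 0.735 against 0.714 ± 0.156. Of 16 other AP-1 and leucine zipper partners, 13 passed, 5 were higher and 2 lower. Among 16 other feedback inhibitors, 11 passed, 6 were higher and 3 lower.

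Lists on either side of this response held more genes that were lower in NA3 than higher, as did all genes (30.1% lower and 19.5% higher). Of 20 kinases and SRF or CREB factors upstream, 17 passed, 1 was higher and 9 were lower in NA3 in every mouse. Mapk3, which encodes the kinase ERK1, was at 3.25 ± 0.585 in NA3 against 5.27 ± 0.374. Of 12 activity-dependent effectors of neurons, 8 passed, 1 was higher and 4 were lower, and Scg2, a granin of secretory vesicles, was at 1.59 ± 0.515 against 3.21 ± 0.889. Of 16 nerve injury and regeneration genes, 11 passed, 2 were higher and 6 lower, and Gap43, a growth cone protein, was at 6.05 ± 0.336 against 12.9 ± 2.47. All 6 neuronal and noradrenergic markers were lower as well, so these lists were lower in NA3 together with the general markers of neurons. Of 12 heat shock genes, 6 were higher, 1 was lower and the median log2 difference was 0.39, and Hspa8, a constitutive chaperone, was at 18.7 ± 5.34 against 16.3 ± 0.853. Named after their values were seen, the inducible chaperone genes Hspa1a and Hspa1b were at 35.1 ± 7.55 against 5.30 ± 1.43 and at 10.1 ± 0.926 against 2.28 ± 0.342, each higher in 3 of 3 mice, and Hspa1a was at least 4-fold higher in each.

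At least 1 UMI of 1 or more of the 10 genes was found in 93.0% ± 3.74 of the neurons of a mouse (n = 5 mice). With each neuron thinned to 2000 UMIs, which leaves 813 of the 1002 neurons, it was 84.0% ± 3.31. Fos was found in 35.9% ± 10.0 of neurons before and 23.4% ± 6.97 after thinning. In NA3 it was found in 92.7% ± 7.15 (88.2% ± 10.9 after thinning, n = 3 mice) and in NA1a in 34.5% ± 13.8 (12.0% ± 11.6, n = 5 mice). Zfp36 was found in 45.7% ± 24.1 of NA3 neurons and in 1.80% ± 2.49 of NA1a neurons. All NA3 neurons of the 3 mice had at least 1 UMI of the 10 genes, before and after thinning. No cell type here is known to lack these genes, so the background share from free RNA could not be set beside them.

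The study contrasts neurons rich and poor in Npy, the cotransmitter neuropeptide Y, and this contrast was not used in choosing the genes. Within NA1a, NA1b, NA1c and NA2 of each mouse with at least 20 neurons of the subtype, neurons were split at the median of Npy and the log2 differences averaged per mouse. Npy itself was at 68.2 ± 7.05 UMIs per 10000 above the median and 21.9 ± 3.65 below it, and the median depth was 4711 and 5178 UMIs. The summed level of the 10 genes was 10.9, 8.00, 8.22, 11.4 and 8.80 above the median in mice 1 to 5 and 10.6, 7.75, 10.9, 10.5 and 9.54 below it. It was higher with more Npy in 3 of 5 mice.

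Across the 2839 genes tested by limma, 20 passed an adjusted p of 0.05 (0.704% of genes; 282 had an unadjusted p under 0.05), a count that can include Npy, which set the groups. Only Fos, Jun and Jund of the 10 passed the filter of 0.5 UMIs per 10000 in every mouse, and none of the 3 passed the test. Jund was at 3.09, 1.87, 3.17, 3.63 and 2.06 in the Npy-rich neurons of mice 1 to 5 and at 3.48, 2.22, 5.17, 4.08 and 2.50 in the Npy-poor ones. It was lower in 5 of 5 mice, by a mean of -0.30 on the log2 scale (SE 0.12, limma adjusted p = 0.37), and the exact two-sided sign-flip permutation test gave p = 0.0625, the smallest that 5 mice allow. Fos differed by -0.0859 (SE 0.22, limma adjusted p = 0.946) and Jun by -0.0229 (SE 0.13, limma adjusted p = 0.974). Dusp1, below the filter, was at 0.559 ± 0.164 with more and 0.367 ± 0.0855 with less Npy, higher in 4 of 5 mice (exact permutation p = 0.125).

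**Figure D5:**
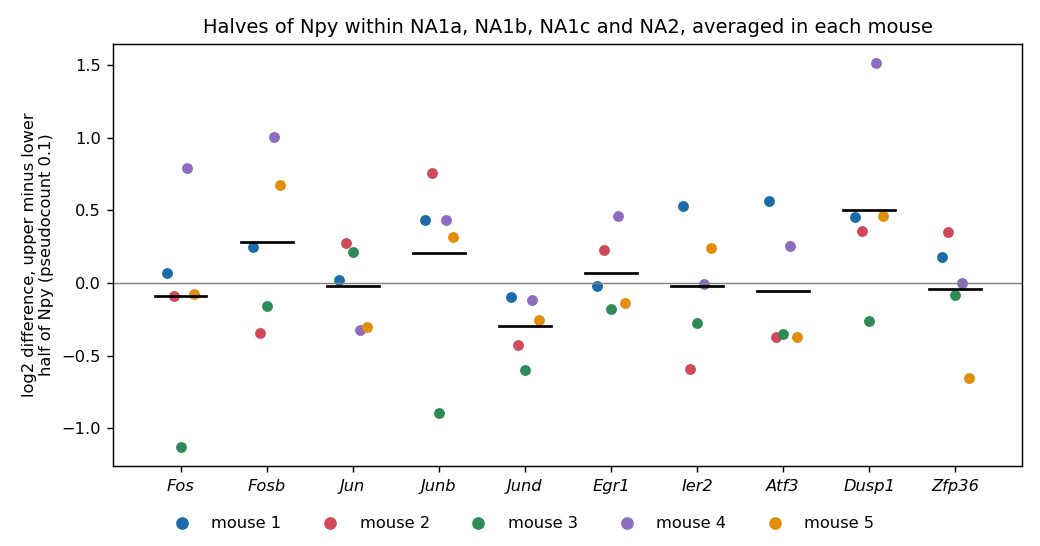
Difference between neurons above and below the median of Npy within NA1a, NA1b, NA1c and NA2, averaged within each mouse (y axis, log2 of UMIs per 10000 + 0.1), for each gene (x axis), with 1 point for each of the 5 mice and a line at the mean. The points of Jund all lie under 0 (mean -0.30), and those of the other 9 genes fall on both sides of 0.

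Split at the median of their total UMIs, the same neurons had a median depth of 7204 and 3331 UMIs. Of 2845 genes 8 passed the limma test (0.281% of genes, and 369 had an unadjusted p under 0.05), and none was among the 10. Only Fos, Jun and Jund of the 10 passed the filter and were tested here. Fos was at 0.816 ± 0.180 in the deeper and 1.04 ± 0.316 in the shallower neurons, a log2 difference of -0.31 (SE 0.22, limma adjusted p = 0.568). Atf3, below the filter, was at 0.308 ± 0.114 and 0.477 ± 0.147, lower in the deeper neurons of 5 of 5 mice (-0.56, SD 0.21, exact permutation p = 0.0625). The satellite glia genes summed to 7.12 ± 3.32 and 12.5 ± 5.03 in the same groups, and their part in the difference of Atf3 was not tested.

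Within a subtype and mouse, the 10 genes varied almost separately from neuron to neuron. Over 18 sets of neurons of 1 mouse and subtype, the mean Pearson correlation of the natural log values of the 45 gene pairs ran from -0.0524 to 0.190 with a median of 0.0343. The highest was that of Fos and Zfp36. Within NA3 (2 mice) the median was 0.147 and the highest 0.507, for Fos and Jund, and 29 of the 45 pairs were over 0.1. Neurons of a set share their library and differ in depth, and sparse counts give low correlations, so these values are descriptions. The non-member genes most like the 10 by mean correlation were Cryab (0.208) and Hspa1a (0.194), both heat shock genes, followed by Timp3, Anp32b, Bcl2, Dnajb1, Pkn2, Zfp106, Vim and Rraga (0.173 to 0.152) of 3855 genes compared. After thinning to 2000 UMIs, Anp32b was at 0.171 (rank 2) and Timp3 at 0.150 (rank 8). Cryab, at 0.129, fell to rank 21, and Hspa1a, at 0.117, to rank 37. Vim fell to rank 73, Zfp106 to 205, Pkn2 to 652, Dnajb1 to 693, Bcl2 to 861 and Rraga to 1556. The order thus depends on depth. Neurons that carried a virus reporter were few. All 6 neurons with GFP, from 2 mice, and 17 of the 19 with tdTomato, from 4 mice, had at least 1 UMI of the 10 genes.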

How the data were processed

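The deposited values were natural log values made by the authors: they aligned reads with Cell Ranger (2.1.1 in the submitters' processing notes, which also list Seurat, Scanpy and mm10), filtered cells in Seurat, and took ln(1 + UMIs per 10000) for each neuron. Removal of doublets is not given in the sources used here, and no doublet caller was run. The log was undone, and 100% of nonzero values then lay within 0.01 of a whole UMI. Mean UMIs per 10000 were formed per mouse and subtype (at least 10 neurons). Neurons of 3 mouse names (301) that match no single sample were not used. The 5 mice come from batch 2, and the remaining samples of the series are all of batch 1. With only the matched mice used, the batch was not varied, and p-values measure the spread between these mice.

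The 2 splits were fitted on all genes with limma 3.58.1 (R 4.3.3, log2 with pseudocount 0.1, mouse as unit, Benjamini-Hochberg). The fit was tried on data simulated from the depth groups only, and the Npy groups were not simulated. Exact sign-flip permutation tests covered single genes. Genes of other lists were named by their level (up to 3 highest per list). Members and lists were chosen with earlier results of these data known. Alternatives were another pseudocount, no filter, thinning to 2000 UMIs, summed UMIs, blocked and unpaired fits, subtypes alone, 5 neurons and each mouse left out. Intervals for counting error are not given because means over mice carry their SD.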

Additional observations from a re-analysis of the deposited data

Results flagged for a closer look

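Of 55 sets of 5 mice examined for a value far from the others, 4 held one. For normally spread values chance gives about 1 in 20. That rate does not hold for sets made mostly of 0, as those of Zfp36 were. Egr1 in NA2 was at 1.91 UMIs per 10000 in mouse 2, which had 14 NA2 neurons, and at 0.0333 to 0.262 in the other 4 mice. Fosb in NA1b was at 0.205 in mouse 4 and at 0.460 to 0.509 in the others. Zfp36 in NA1b was at 0.138 in mouse 2 and at 0 to 0.0321 in the others, and Zfp36 in NA2 was at 0.0950 in mouse 5 and listed at 0 in the other 4.

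All 10 genes were searched in the 6 pairs of NA1a, NA1b, NA1c and NA2, under both splits, for opposite signs in every mouse. The difference between neurons rich and poor in Npy went opposite ways in pairs of subtypes for 2 genes. The share of all genes that met this rule was not computed, so these 2 are descriptions without a background. Fos was lower with more Npy in NA1a in 5 of 5 mice (mean log2 difference -1.11) and higher in NA2 in 3 of 3 mice (0.59), a gap of -1.70 that was not tested. Egr1 was lower with more Npy in NA1a in 5 of 5 mice (-0.50) and higher in NA1b in 5 of 5 (1.03), a gap of -1.53 that was not tested. In NA1a of mouse 5 Egr1 was nearly the same, at 0.103 with more and 0.107 with less Npy. In NA1b, satellite glia genes summed to 29.9, 15.2, 3.33, 12.6 and 7.71 UMIs per 10000 in the Npy-rich neurons of mice 1 to 5. The Npy-poor ones had 13.6, 13.8, 3.05, 3.82 and 5.73. Median depth was 2033, 2636, 4313, 3536.5 and 3662.5 UMIs in the Npy-rich neurons of NA1b. It was 5187, 2587, 6977, 9554.5 and 8236.5 in the Npy-poor ones. In NA1a, satellite glia genes summed to 9.44, 7.62, 9.47, 9.92 and 4.83 in the Npy-poor neurons of mice 1 to 5. They summed to 7.75, 6.54, 3.58, 3.88 and 5.91 in the Npy-rich ones. The parts of glia RNA and depth in these differences were not tested.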

How the results depend on the processing

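The mean summed level over mice, 16.3 ± 4.63, was 9.70 with equal weight on NA1a, NA1b, NA1c and NA2, 17.8 from summed UMIs, and 14.99 to 17.5 without 1 mouse. The share of neurons with any of the 10 genes was 84.0% after thinning. With 5 neurons per mouse, the genes at least 4-fold higher in NA3 numbered 4 (against NA1b), 4 (NA1c) and 3 (NA2), and without 1 mouse 7 to 8 in each. The share of all genes under the same rule was not computed for these settings. The limit on satellite glia RNA, chosen after seeing the data, left 11 NA3 neurons from 4 mice with a pooled sum of 61.3. Of the member levels by subtype under all alternatives, 366 moved by less than 1 SD and 14 by more. Most of the 366 were fixed in advance. A mean with 1 mouse left out cannot move by 1 SD. The minimum of 5 neurons left NA1a, NA1b, NA1c and NA2 unchanged. The 366 are therefore no measure of stability.

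Genes called between Npy groups numbered 1 without a filter, 3 after thinning, 6 with the replicate block, 2 with no replicate block, 6 in NA1a, 1 in NA1b and 2 in NA1c alone, and 8 to 28 without 1 mouse (8 without mouse 2, 13 without mouse 3, 10 without mouse 4). Between depth groups they numbered 19 with a pseudocount of 1, 3 without a filter, 5 after thinning, 10 with the replicate block, 1 with no replicate block, 22 from summed UMIs, 2 in NA1a, 25 in NA1b, 0 in NA1c (158 at an unadjusted limma p under 0.05), 0 in NA2 (145), and 5 to 7 without 1 mouse (5 without mouse 4). None of the 10 genes was called under any of these. With the filter only 2 to 5 of the 10 were tested in a setting, and without it all 10 were.

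Some uncalled log2 differences changed sign. Between Npy groups, Fos was 0.32 in NA1c, 0.59 in NA2 and -0.31 to 0.17 without 1 mouse (0.17 without mouse 3), and Jun 0.0143 from summed UMIs, 0.83 in NA2 and -0.0974 to 0.0522 without 1 mouse (0.0522 without mouse 4, 0.0463 without mouse 5). Between depth groups, Fos was 0.17 in NA1c and 0.43 in NA2, Jun 0.34 after thinning, 0.00333 from summed UMIs, 0.17 in NA1a, 0.0962 in NA2 and -0.15 to 0.0490 without 1 mouse (0.0490 without mouse 1), and Jund -0.0413 in NA1a and -0.19 in NA2. The cause was not tested. Depth limits the genes near 0, since the level of 1 UMI in a median NA2 neuron exceeds the mean of Zfp36 or Ier2 there.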
